A study of Mus musculus with 8 samples.

Results

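Interferon-stimulated genes are the genes that cells switch on when interferons bind their receptors, and 42 of them, outside the OAS family and the interferon-inducible GTPases, are described here in splenic B cells with and without Irf4. A gene's value comes from a probe set that the annotation gives to that gene alone, and, where there were several, from the one with the highest mean over all arrays. By this rule 40 of the 42 had a probe set, among 18193 genes in all, and each of the 40 was bright enough to be tested. Isg15 is listed only on a probe set that it shares with a second symbol, and no probe set is listed for Ifi44, so neither has a value. Mature B cells were prepared from spleens of C57BL/6 mice 12 weeks old, either irf4-/- (Irf4 null, 4 arrays) or their irf4+/+ littermates (wild type, 4 arrays), by magnetic removal of the other cells. No mouse was treated with interferon or infected, as far as the labels say. The irf4-/- allele is not tied to B cells in the labels, so the other cells of these mice may lack Irf4 as well. Nothing in the labels says that each array came from a separate mouse, so the p-values reflect only the spread among these samples, part of which may be technical.

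Type I interferons act through a receptor whose kinases activate transcription factors, among them Stat2. Stat2 and Irf9 are subunits of a complex that binds the interferon-stimulated response element (ISRE) in the promoters of its targets. The products sense foreign RNA and DNA, block steps of viral replication, or conjugate the ubiquitin-like protein Isg15. Irf4 belongs to the same protein family as Irf9. It binds DNA weakly alone and more strongly beside ETS family partners such as PU.1, at a composite element that resembles the ISRE.

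The arrays carried the same trimmed mean signal, 500.003, and correlated at 0.96 to 0.982 over the 27022 probe sets tested. Irf4 itself was at 2035, 1720, 1779 and 2341 in the 4 wild-type samples, numbered 1 to 4 throughout, against 285, 259, 244 and 315 in the 4 Irf4 null samples. B cell markers were bright in both groups: 7 of the 8 listed had a probe set, and they summed to 68284 to 81667 in wild type against 72970 to 78336 without Irf4. Plasma cell markers, of which 3 of 6 tested fell, summed to 15385 to 40425 against 9179 to 11111. Neutrophil markers summed to 5831 to 55308 against 11111 to 77052. Their changes were positive in 10 of 10 tested (median log2 fold change 1.35), with 0 at an unadjusted p below 0.05 (limma). Monocyte and macrophage markers summed to 11120 to 37712 against 15689 to 32835, with 6 of 9 tested positive, 3 negative and none called. NK cell markers summed to 2557 to 8406 against 4547 to 14193, with positive changes in 9 of 9 tested and Prf1 called higher (1.33 ± 0.24, adjusted p = 0.0122). At an unadjusted p below 0.05, 8 of these 9 were higher (limma). T cell markers summed to 1004 to 2131 against 1174 to 9543, with positive changes in 9 of 9 and none called (limma; 3 at an unadjusted p below 0.05). Erythroid and platelet markers summed to 2956 to 4440 against 4212 to 7790, with positive changes in 8 of 8 and Ppbp called higher (0.81 ± 0.19, adjusted p = 0.0415). Of these 8, 5 were higher at an unadjusted p below 0.05 (limma). The part of these cells in single genes below was not tested beyond the fits with the marker mean and the Xist split. Xist, a female-specific RNA, was above 1000 on 4 arrays, wild-type 1, 3 and 4 with Irf4 null 1 (Xist-high). It was at most 94.8 on the other 4 arrays (Xist-low). The Y-linked RNA Eif2s3y was at most 25.4 on the Xist-high arrays and 3216 to 4530 on the Xist-low arrays. By these RNAs the Xist-high arrays look female and the Xist-low arrays male, though the labels do not give the sex. The mean of 55 markers of other blood cells followed that split, at 7.87 to 8.21 (log2) on the Xist-high arrays and 8.92 to 9.54 on the Xist-low arrays. Defining markers of plasmacytoid and conventional dendritic cells were dim to moderate, with Siglech at 28.4 to 73.3 in wild type and at 30.4 to 99.3 without Irf4. Their summed signal over 10 markers ran from 1510 to 3330 and from 1600 to 2704. Of these 10, 7 had positive and 3 negative changes, from -0.53 ± 0.42 (Clec10a) to 0.72 ± 0.23 (Itgax). None was called, and 1 was higher at an unadjusted p below 0.05 (limma).

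The comparison asks whether the levels of these RNAs in splenic B cells depend on Irf4. Without Irf4, 20 of the 40 measured genes rose, none fell and 20 did not pass (limma, adjusted p below 0.05 over all probe sets). Of all probe sets tested, 2.01% were called higher and 1.51% lower. The genes were listed with earlier results of these data known. Their counts beside those of all probe sets are therefore a description and not a test. The rises ran from 0.35 (Trim30a) to 1.60 (Usp18) on the log2 scale. Over the 40 genes the median log2 fold change was 0.69, against 0.003 over all probe sets. At an unadjusted p below 0.05, 31 of the 40 were higher and 0 lower (limma), against 9.06% and 8.01% of all probe sets. All 4 Irf4 null arrays lay above all 4 wild-type arrays for 24 of the 40 genes, including each of the 20 called, and below them for 1, Stat2; over all probe sets 5.48% and 5.33% did so. The 20 genes called were not one functional class, since at least 1 member of each of the 7 groups described below rose. In whole preparations a changed share of a cell type and a change of RNA per cell cannot be told apart. The number called was 12 without wild-type array 4, 12 without Irf4 null array 4 and 13 without Irf4 null array 1. In these fits 533, 466 and 769 of all probe sets were called in either direction, against 950 over all 8 arrays.

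**Figure D1:**
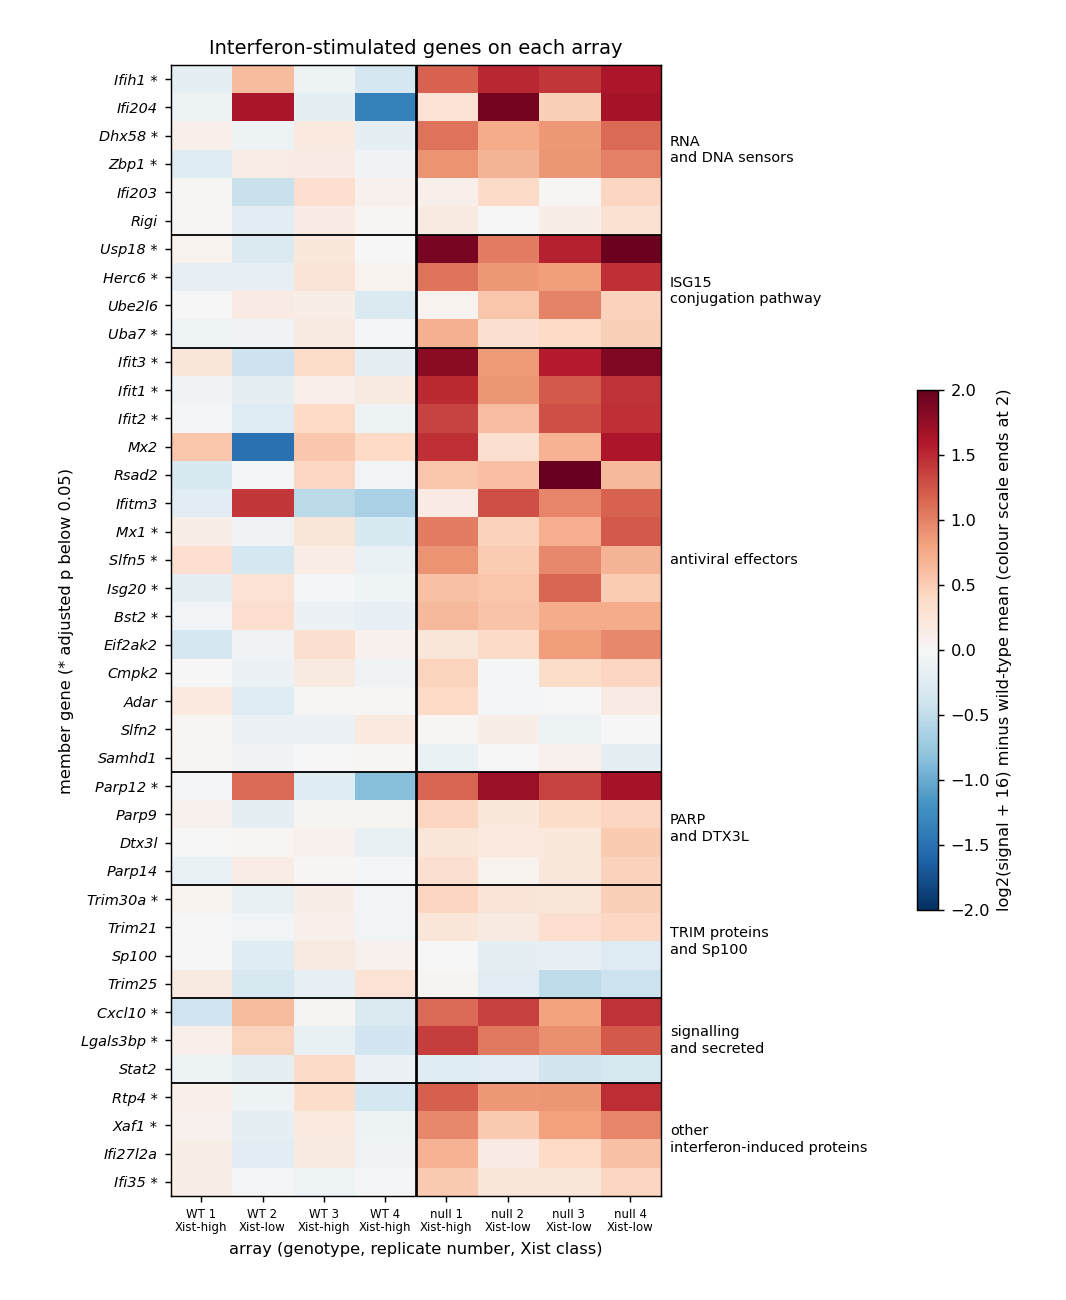
Each row is 1 of the 40 measured genes and each column 1 array; colour is log2(signal + 16) minus the wild-type mean of that gene, red above and blue below, and an asterisk marks an adjusted p below 0.05. The Irf4 null columns are red in most rows, while the rows of Ifitm3, Ifi204 and Parp12 are also red on wild-type array 2.

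Array by array, the median of the 40 genes relative to their wild-type means was 0.0099, -0.10, 0.14 and -0.07 on wild-type arrays 1 to 4. On Irf4 null arrays 1 to 4 it was 0.57, 0.48, 0.74 and 0.67. All of the Irf4 null values lay above all of the wild-type values. Between 34 and 37 of the 40 genes stood above their wild-type mean on each Irf4 null array, and between 12 and 30 did on each wild-type array. The mean of the 55 other-cell markers on the same arrays was 7.87, 9.30, 8.10 and 7.88 in wild type. Without Irf4 it was 8.21, 9.40, 9.54 and 8.92. The groups overlap in the marker mean only through the wild-type array at 9.30. The wild-type arrays at 7.87, 8.10 and 7.88 lay below all of the Irf4 null arrays. The part of other cells in these medians was not tested beyond the fits with the marker mean and the Xist split. The fit with the marker mean as a covariate is given with the Xist split.

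Promoter windows from 250 bases before to 50 after the start were found in RefSeq (GRCm38.p6) for 32 of the 42 genes, 40 windows in all. Without a window, and so not searched, were the called genes Dhx58, Zbp1, Usp18, Mx1 and Rtp4. The same holds for Ifi204, Mx2, Parp9, Parp14 and Ifi27l2a, which were not called. The ISRE core, searched on both strands as GAAA, any 2 bases and GAAA again, was in the windows of 15 of the 32 genes (46.9%), against 3.99% of 27025 genes with a window. These 15 include Isg15, 7 genes that rose and 7 that did not pass. The stretches below are shown because they belong to the called genes with the smallest adjusted p whose match lies wholly before the start, and capitals mark the core on either strand. Rsad2 and Stat2, which did not pass, were added after their values were seen, because their arrays separated the genotypes in opposite directions. Positions of the sequence are those of GRCm38.p6, with the strand of the gene, and each is read 5′ to 3′ along the gene.
Ifit1, chr19:34640770-34640828, plus strand: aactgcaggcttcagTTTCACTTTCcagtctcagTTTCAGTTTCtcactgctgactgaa
Ifit3, chr19:34583358-34583431, plus strand: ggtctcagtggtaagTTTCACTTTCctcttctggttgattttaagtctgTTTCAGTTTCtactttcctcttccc
Bst2, chr8:71537572-71537617, minus strand: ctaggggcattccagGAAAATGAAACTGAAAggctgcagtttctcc
Cxcl10, chr5:92349078-92349117, minus strand: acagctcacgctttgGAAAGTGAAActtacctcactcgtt
Slfn5, chr11:82951932-82951971, plus strand: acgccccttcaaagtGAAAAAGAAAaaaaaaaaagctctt
Trim30a, chr7:104465205-104465244, minus strand: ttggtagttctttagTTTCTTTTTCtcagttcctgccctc
Rsad2, chr12:26456548-26456587, minus strand: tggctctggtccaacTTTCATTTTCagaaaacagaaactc
Stat2, chr10:128270261-128270300, plus strand: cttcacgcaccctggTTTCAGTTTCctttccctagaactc

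Ifit1 and Ifit3 each carry the core at 2 separate places, and in Bst2 a pair of cores overlap in a single run. The matches of Slfn5 and Trim30a lie in runs rich in A or T, and a match of these letters does not show that a protein binds there. The ETS-IRF composite core, searched on both strands as GGAA, any 2 bases and GAAA, was in the windows of 7 of the 32 genes (21.9%), against 3.16% of all genes with a window. They were Sp100, Adar, Ifi44, Stat2, Slfn2, Trim25 and Dtx3l, and only in Stat2 did it overlap an ISRE core. None of the 6 of these with a value was called, and their log2 fold changes ran from -0.29 to 0.29. The 24 other measured genes with a window ran from -0.063 to 1.52. This split was noticed after the values were seen and is given as a description.

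**Figure D2:**
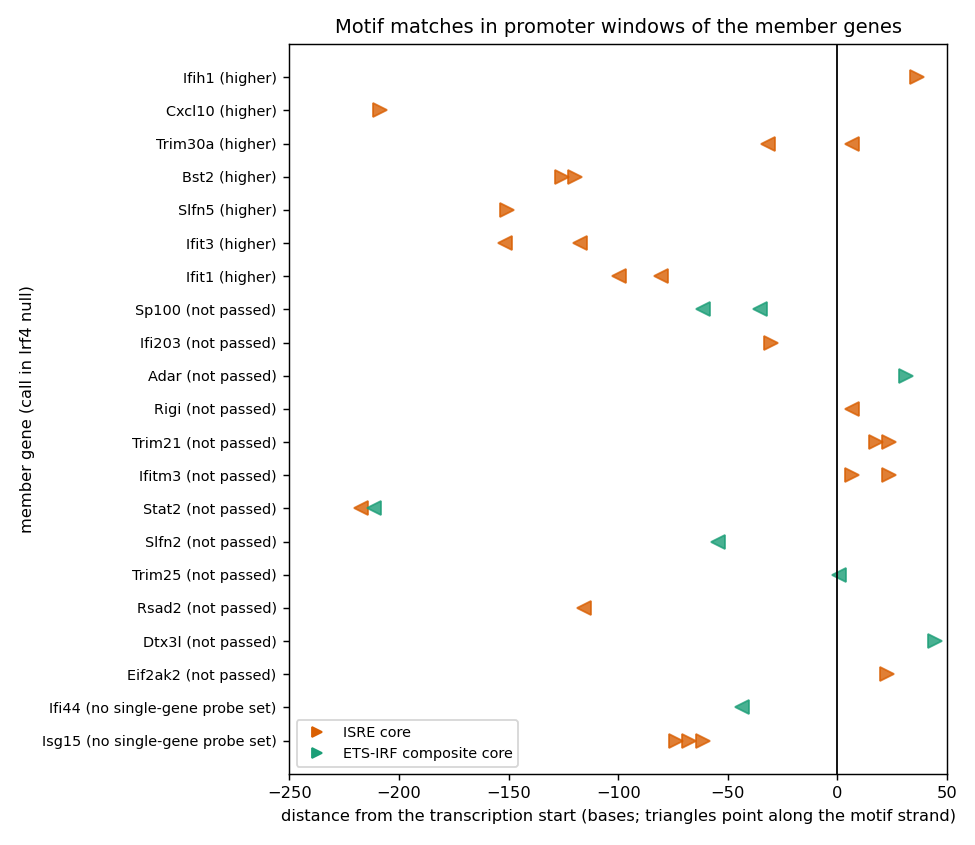
Each triangle is 1 match of the ISRE core (orange) or of the ETS-IRF composite core (green) in the promoter windows of the genes named on the vertical axis, placed by its distance in bases from the transcription start and pointing along the strand of the motif. Among genes with a window, green triangles appear only in genes that did not pass and in Ifi44, which has no value. Orange triangles appear in 7 genes of either call and in Isg15, which has no value. The called genes Dhx58, Zbp1, Usp18, Mx1 and Rtp4 had no window.

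Of the 6 sensors of RNA and DNA, 3 rose and 3 did not pass. Ifih1, the sensor MDA5 of long double-stranded RNA, read 319, 581, 343 and 285 on the wild-type arrays and 848, 1074, 1007 and 1161 without Irf4. Wild-type array 2 was the highest of its group and still below every Irf4 null array. The log2 fold change was 1.43 ± 0.20 (SE, adjusted p = 0.00258), and Ifih1 is 1 of 4 genes that kept their call in every alternative run. Dhx58, the helicase LGP2 that tunes signalling by both RNA helicase sensors, read 395, 344, 423 and 322 against 804, 631, 684 and 829. It rose by 0.96 ± 0.13 (adjusted p = 0.0021), with a clear gap between the groups. Zbp1, a receptor of Z-form nucleic acids that can start necroptosis, read 511, 669, 678 and 574 against 1143, 979, 1123 and 1232 and rose by 0.87 ± 0.11 (adjusted p = 0.0021). Its second probe set passed as well (adjusted p = 0.00625).

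Rigi, the RNA sensor RIG-I that shares its adaptor with Ifih1, was at 0.16 ± 0.10 (adjusted p = 0.466), and its wild-type range of 1178 to 1521 overlapped the Irf4 null range of 1372 to 1695. Of the DNA-binding p200 family, Ifi203 was at 0.23 ± 0.16 (adjusted p = 0.512), with ranges of 741 to 1283 and 1021 to 1361. Ifi204 read 113, 409, 106 and 37.7 on the wild-type arrays and 152, 504, 176 and 418 without Irf4, and its change was 1.09 ± 0.56 (adjusted p = 0.364). Its wild-type array 2 lay within the Irf4 null range, and without that array Ifi204 passed (limma, adjusted p = 0.0419). These p200 genes are close relatives in 1 gene cluster, so probes may cross-hybridise.

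In the Isg15 conjugation pathway 3 of 4 measured genes rose and 1 did not pass. Usp18 removes Isg15 from its targets and also dampens signalling at the type I interferon receptor. It read 518, 399, 571 and 496 on the wild-type arrays and 1878, 1017, 1456 and 1964 without Irf4, the largest log2 fold change of the 40 at 1.60 ± 0.19 (adjusted p = 0.0013). The lowest Irf4 null array was above the highest wild-type array by a wide margin. Herc6, the main ligase for Isg15 in mice, read 591, 596, 802 and 701 against 1430, 1224, 1208 and 1868, a rise of 1.06 ± 0.15 (adjusted p = 0.00303). Its 3 other probe sets were also higher on every Irf4 null array, and 2 of them passed. Uba7, the activating enzyme of the pathway, read 1100, 1105, 1328 and 1138 against 1923, 1454, 1541 and 1624. That is a rise of 0.48 ± 0.10 (adjusted p = 0.032), a small step between groups that do not overlap. The call of Uba7 was lost without wild-type array 1 or 4 or Irf4 null array 1, 3 or 4, with adjusted p up to 0.102. The conjugating enzyme gene Ube2l6 was at 0.52 ± 0.19 (adjusted p = 0.189), with ranges of 142 to 199 and 187 to 369.

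**Figure D3:**
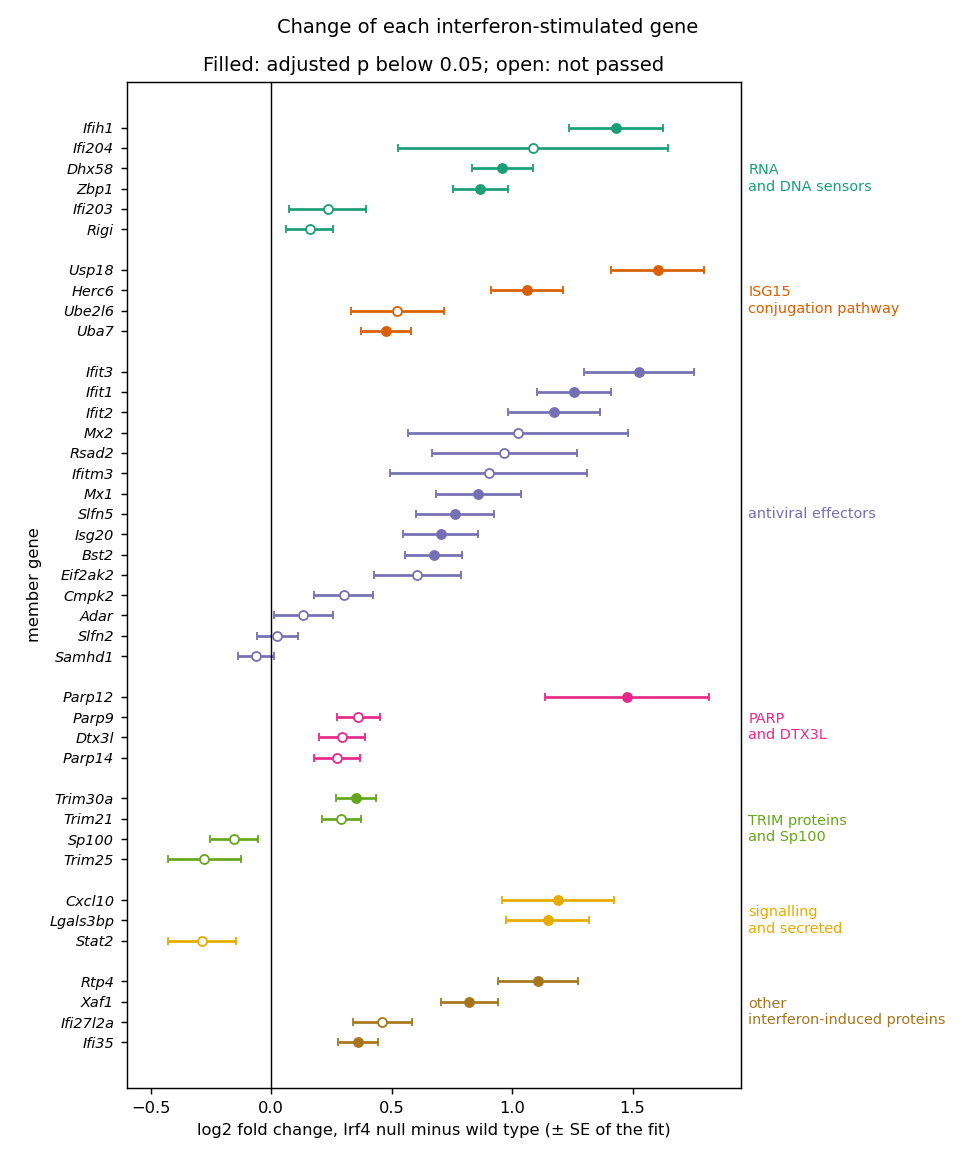
Points are log2 fold changes of Irf4 null minus wild type from the fit over all 8 arrays, bars are ± SE, and the 40 genes are grouped by function and coloured by group. Filled points passed at an adjusted p below 0.05 and open points did not; Usp18, Ifit3 and Parp12 lie farthest right, and Stat2, Trim25, Sp100 and Samhd1 are the 4 genes left of 0.

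Antiviral effectors were the largest group, with 7 of 15 higher and 8 not passed. The Ifit proteins bind viral RNA and hold it back from translation, and all 3 members rose. Ifit1 read 203, 184, 230 and 243 on the wild-type arrays and 629, 408, 521 and 608 without Irf4, a rise of 1.26 ± 0.15 (adjusted p = 0.00144). Ifit3 read 835, 525, 909 and 619 against 2517, 1292, 2131 and 2591, a rise of 1.52 ± 0.23 (adjusted p = 0.00435). Both promoters carry the paired cores printed above. Ifit2 read 677, 581, 931 and 653 against 1803, 1078, 1725 and 1947, a rise of 1.17 ± 0.19 (adjusted p = 0.007). In each of the 3 genes Irf4 null array 2 was the lowest of its group, and wild-type array 2 the lowest of its own.

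Bst2 encodes tetherin, which holds budding virions at the cell surface. Its signals were 611, 807, 588 and 564 in wild type against 1005, 952, 1074 and 1073 without Irf4, a rise of 0.67 ± 0.12 (adjusted p = 0.0111). The Irf4 null arrays lay close together, with an SD of 58.8 around 1026. Mx1, a dynamin-like protein that acts against influenza viruses and whose gene is defective in most laboratory mouse strains, read 455, 396, 493 and 331 against 861, 573, 699 and 988. It rose by 0.86 ± 0.18 (adjusted p = 0.0229), but lost its call without wild-type array 1 or 4 or Irf4 null array 1 or 4 (adjusted p up to 0.0761). Slfn5, of the Schlafen family, rose by 0.76 ± 0.16 (adjusted p = 0.0272), with signals of 284 to 466 in wild type and of 530 to 729 without Irf4. Isg20, an RNA exonuclease, rose by 0.70 ± 0.15 (adjusted p = 0.0328), with signals of 874 to 1214 and of 1410 to 2246. Slfn5 lost its call without wild-type array 3 or 4 or Irf4 null array 1, 3 or 4 (adjusted p up to 0.09). Isg20 kept its call only without wild-type array 2 or Irf4 null array 3, of the 8 arrays left out in turn (adjusted p up to 0.105 in the rest).

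The 8 effectors that did not pass were of different kinds. Rsad2 encodes viperin, which makes a chain-terminating nucleotide. It read 983, 1188, 1634 and 1176 on the wild-type arrays and 1811, 1871, 5149 and 1927 without Irf4. Every Irf4 null array was above every wild-type array, and array 3 stood far above the others. With this spread the change of 0.97 ± 0.30 did not pass (adjusted p = 0.116). Mx2 read 118, 16.5, 117 and 104 against 236, 97.8, 132 and 264 (1.02 ± 0.46, adjusted p = 0.285), a dim and scattered signal whose groups overlap. Eif2ak2, the kinase PKR that halts translation on double-stranded RNA, was at 0.61 ± 0.18 (adjusted p = 0.102), with ranges of 675 to 1080 and 1016 to 1689. Cmpk2, a mitochondrial nucleotide kinase, was at 0.30 ± 0.12 (adjusted p = 0.233), with ranges of 800 to 994 and 849 to 1190. These ranges overlap in both genes. The editing enzyme gene Adar, with ranges of 826 to 1124 and 964 to 1298, was at 0.13 ± 0.12, Slfn2 at 0.026 ± 0.085, and Samhd1, which depletes the nucleotides that viruses need, at -0.063 ± 0.074 (adjusted p = 0.645, 0.921 and 0.73). Samhd1 and Slfn2 were among the bright probe sets, between 6174 and 7543 and between 5958 and 7379 over all 8 arrays.

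Ifitm3, which blocks the fusion of viruses in endosomes, read 2360, 7440, 1906 and 1762 on the wild-type arrays and 3119, 6778, 5485 and 6291 without Irf4. The 4 high arrays are the 4 Xist-low arrays of either genotype, which also carried more RNA of other blood cells. Its change was 0.90 ± 0.41 (adjusted p = 0.291) over all arrays and 0.18 with the Xist-high term (adjusted p = 0.73). Without wild-type array 2 Ifitm3 passed (limma, adjusted p = 0.00455). With the other-cell marker mean as a covariate the change of Ifitm3 was 0.12 ± 0.23 (limma, adjusted p = 0.875). The part of other cells in the Ifitm3 signal was not tested beyond these fits.

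**Figure D4:**
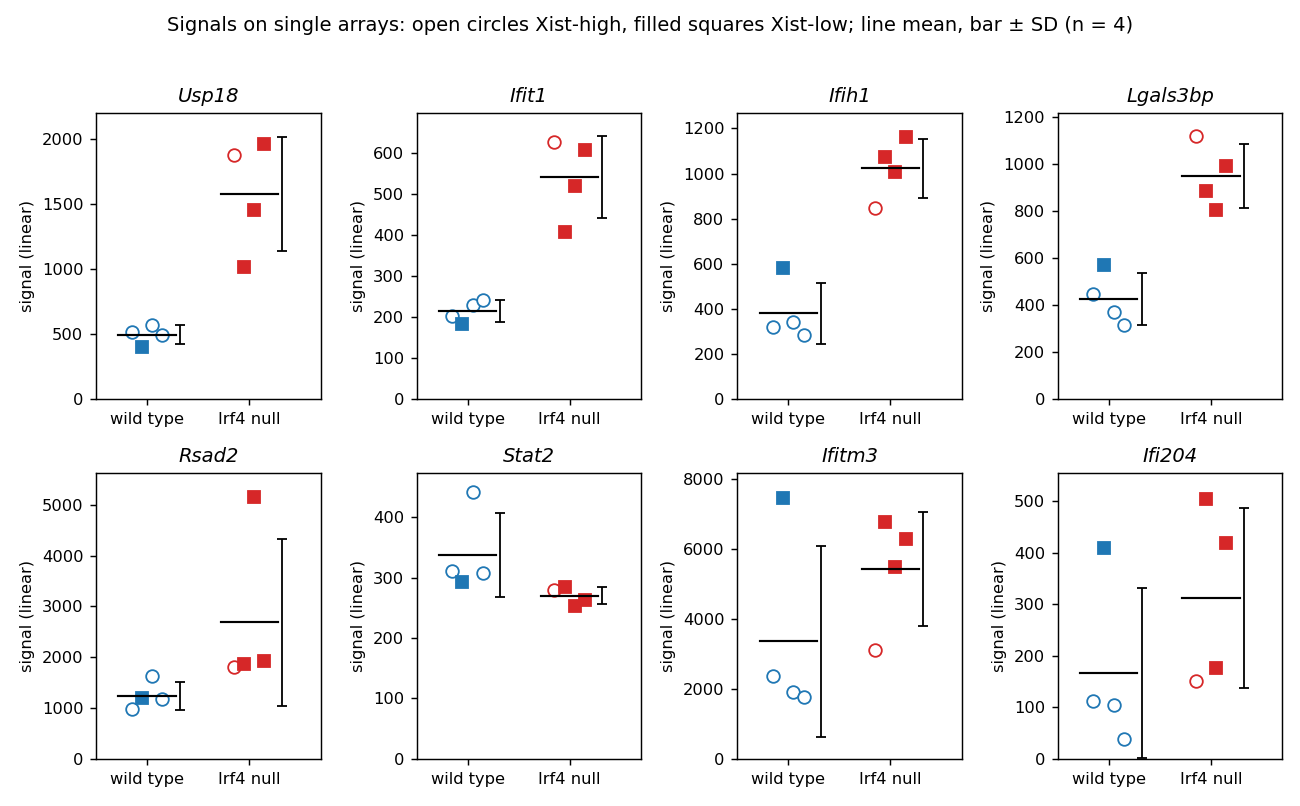
Signals of 8 genes on a linear scale, 1 point per array, with open circles for Xist-high and filled squares for Xist-low arrays, a line at the group mean and a bar of ± SD (n = 4 arrays). In Usp18, Ifit1, Ifih1 and Lgals3bp the groups do not overlap; in Rsad2 Irf4 null array 3 stands alone at 5149; in Stat2 wild type is the higher group; and wild-type array 2 lies above all Irf4 null arrays in Ifitm3 and among them in Ifi204.

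Among the ADP-ribosylation genes, 1 of 4 rose and 3 did not pass, although the Irf4 null arrays lay above the wild-type arrays for 3 of the 4. Parp12, a mono-ADP-ribosyltransferase that limits several RNA viruses, read 164, 390, 141 and 86.6 on the wild-type arrays and 398, 594, 459 and 572 without Irf4, a rise of 1.48 ± 0.34 (adjusted p = 0.0398). Wild-type array 2 came within a few units of the lowest Irf4 null array. Parp12 kept its call only without wild-type array 2, of the 8 arrays left out in turn (adjusted p up to 0.121 in the rest), and did not pass with the Xist-high term (0.99, adjusted p = 0.0828). Parp9 and its partner Dtx3l, a ubiquitin ligase, act as a complex. Parp9 read 2122, 1731, 2063 and 2060 against 2692, 2310, 2578 and 2676, a change of 0.36 ± 0.09 that just missed the threshold (adjusted p = 0.0502) and passed without wild-type array 2 (adjusted p = 0.0469). Dtx3l read 1999, 2048, 2115 and 1784 against 2353, 2264, 2295 and 2864 (0.29 ± 0.09, adjusted p = 0.129), again with no overlap. Parp14, a larger relative, was at 0.27 ± 0.10 (adjusted p = 0.166), with an overlap at 2543 to 2666.

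Of the TRIM proteins and Sp100, 1 of 4 rose and 3 did not pass. Trim30a read 5759, 4934, 6012 and 5273 on the wild-type arrays and 7350, 6533, 6516 and 7656 without Irf4, a rise of 0.35 ± 0.08 (adjusted p = 0.0488). It lost its call when any of the 8 arrays was left out (adjusted p from 0.0544 to 0.136), while its second probe set, called too, rose by 0.44 ± 0.10 (adjusted p = 0.0422). Trim30a has close relatives in its cluster that may share probes. Trim21, the antibody receptor of the cytosol, read 1641, 1574, 1750 and 1568 against 1929, 1847, 2057 and 2187 and did not pass (0.29 ± 0.08, adjusted p = 0.079), although its groups do not overlap. Trim25, a ubiquitin ligase that acts on Rigi, was at -0.28 ± 0.15 (adjusted p = 0.393), and its ranges of 6416 to 9797 and 5619 to 8285 overlapped. Sp100, a protein of nuclear bodies, was at -0.15 ± 0.10 (adjusted p = 0.486), with ranges of 2033 to 2729 and 2025 to 2401.

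Lgals3bp and Cxcl10 encode secreted proteins, and both rose. Lgals3bp, a glycoprotein that binds galectins, read 448, 572, 373 and 314 on the wild-type arrays and 1117, 885, 805 and 991 without Irf4, a rise of 1.15 ± 0.17 (adjusted p = 0.00437). Cxcl10, a chemokine for cells with the receptor Cxcr3, read 92.0, 204, 131 and 101 against 297, 350, 233 and 373, a rise of 1.19 ± 0.23 (adjusted p = 0.0188) from a dim wild-type level. With the Xist-high term Cxcl10 did not pass (0.96, adjusted p = 0.0617), nor without wild-type array 1, 3 or 4 or Irf4 null array 2 or 4 (adjusted p up to 0.0701). Stat2, a subunit of the complex that binds the ISRE, went the other way. It read 310, 292, 441 and 307 on the wild-type arrays and 279, 285, 253 and 264 without Irf4, with each Irf4 null array below each wild-type array, and its change of -0.29 ± 0.14 did not pass (adjusted p = 0.341). The second Stat2 probe set separated the groups in the same direction (-0.31 ± 0.13, adjusted p = 0.268).

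The remaining interferon-induced proteins have varied roles, and 3 of the 4 measured rose. Rtp4, a chaperone of G protein-coupled receptors, read 2305, 1997, 2743 and 1689 on the wild-type arrays and 4938, 3926, 3990 and 6027 without Irf4, a rise of 1.11 ± 0.17 (adjusted p = 0.00427). Xaf1, an antagonist of the apoptosis inhibitor XIAP, read 1799, 1492, 1948 and 1584 against 3308, 2454, 3009 and 3372, a rise of 0.82 ± 0.12 (adjusted p = 0.00332). In both genes the Irf4 null arrays were clear of the wild-type arrays. Ifi35 read 8379, 7536, 7248 and 7528 against 11022, 9093, 9093 and 10279, a rise of 0.36 ± 0.08 (adjusted p = 0.0363) that was lost without wild-type array 3 or 4 or Irf4 null array 1, 2 or 4 (adjusted p up to 0.106). Ifi27l2a ranged from 6818 to 8997 and from 8931 to 12915, so the groups touched, and it did not pass (0.46 ± 0.12, adjusted p = 0.0678). Without Irf4 null array 2 Ifi27l2a passed (limma, adjusted p = 0.0389).

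The Xist split crosses genotype, with 3 wild-type arrays and 1 Irf4 null array on the high side. With the split as a term in the fit 20 genes were again called higher and none lower, and over all probe sets 1.41% were called higher and 0.947% lower. In all 17 of the 20 were the same genes, and Cxcl10, Isg20 and Parp12 were lost. Gained were Mx2 (1.67, adjusted p = 0.038), Parp9 (0.45, adjusted p = 0.0232) and Ifi27l2a (0.61, adjusted p = 0.0123). Mx2 was at 0.96 within the Xist-high arrays and 2.37 within the Xist-low arrays. Its lone wild-type signal among the latter, 16.5, cannot be told from background. The mean of other-cell markers as a covariate lost and gained the same genes, with 1.37% of all probe sets called higher and 0.951% lower. This mean ran from 7.87 to 8.21 on the Xist-high arrays and from 8.92 to 9.54 on the Xist-low arrays. The covariate therefore largely repeats the split, and the fits with either cannot tell the split and the RNA of other cells apart. The median over the 40 genes was 0.56 with the split and 0.53 with the covariate. Within the Xist-high arrays, where Irf4 null array 1 stands against 3 wild-type arrays, 9 of 40 were higher and 0 lower (0.629% and 0.315% of all probe sets) at a median of 0.66. Within the Xist-low arrays, where wild-type array 2 stands against 3 Irf4 null arrays, 6 were higher and 0 lower (0.574% and 0.403% of all probe sets) at a median of 0.52. Each of these fits takes the lone array to vary like the others. Where the groups of arrays do not overlap, as for each of the 20 called genes, the sign on either side is fixed by that. Of the 15 genes whose groups overlap, 9 had positive changes on both sides. Usp18 was at 1.80 on either side, Ifit1 at 1.42 and 1.38 and Ifit3 at 1.67 and 1.84, within Xist-high and Xist-low arrays in that order. Parp12 was at 1.54 and 0.45, Lgals3bp at 1.54 and 0.63, and Ifitm3 at 0.64 and -0.27. The difference between the sides passed for none of the 40 genes (limma interaction, smallest adjusted p = 0.439; 5 at an unadjusted p below 0.05).

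**Figure D5:**
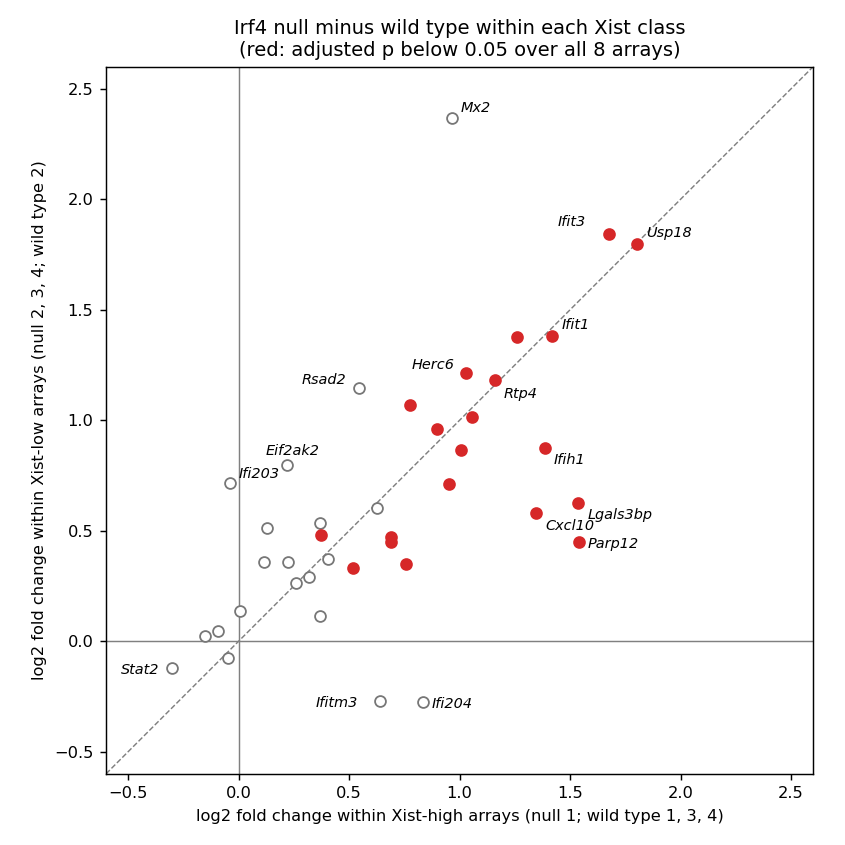
Each point is 1 of the 40 genes, with the log2 fold change of Irf4 null minus wild type within the Xist-high arrays on the horizontal axis and within the Xist-low arrays on the vertical axis; red points were called over all 8 arrays and the dashed line marks equal changes. Red points lie right of and above 0 by construction, since their groups of arrays do not overlap; Usp18 and Ifit1 lie near the line, and Ifitm3 and Ifi204 lie below 0 on the vertical axis.

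Where a gene had further probe sets, they were set beside the chosen one. The called genes had 13 other tested probe sets, all 13 with a positive change, and 5 of them passed. The genes not called had 20 other tested probe sets, none of which passed in either direction (limma).

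Other genes of the interferon pathway were taken from lists drawn up with earlier results of these data known, and their counts are given for orientation; those named without passing were picked after their values were seen. Of 12 interferon genes listed, 8 had a dim probe set, with signals of 1.24 to 62.9 on any array, and Ifng alone was tested. Ifng was at 0.92 ± 0.26 (adjusted p = 0.0861), with signals of 56.7, 89.2, 55.8 and 35.8 in wild type against 80.2, 160, 138 and 126 without Irf4. Of 14 tested receptor and JAK-STAT genes 2 rose and none fell, with a median of 0.043, and at an unadjusted p below 0.05 4 were higher and 4 lower (limma). The phosphatase gene Ptpn11 rose by 0.55 ± 0.08 (adjusted p = 0.00263) and the feedback inhibitor gene Socs3 by 0.59 ± 0.11 (adjusted p = 0.016). The receptor subunit gene Ifnar1 was at -0.29 ± 0.09 (adjusted p = 0.13), and Irf9 at 0.21 ± 0.09 (adjusted p = 0.281). Socs3 did not pass with the Xist-high term (0.53, adjusted p = 0.0546).

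Of 6 tested interferon regulatory factors Irf7, the factor that amplifies type I interferon responses, rose by 1.09 ± 0.14 (adjusted p = 0.00181). Its signals were 483, 373, 445 and 441 in wild type against 1092, 808, 795 and 1119 without Irf4, a gap of the same kind as in Usp18. Of 7 tested OAS genes 4 rose, with a median of 1.30: Oas1a by 1.41 ± 0.11, Oasl2 by 1.30 ± 0.15, Oas3 by 1.88 ± 0.27 from a dim wild-type mean of 41.4, and Oas2 by 1.44 ± 0.28. Of 10 tested interferon-inducible GTPases 7 rose, with a median of 0.70, and the 4 with the smallest adjusted p were Gbp7 (1.47 ± 0.16), Gbp6 (1.52 ± 0.17), Iigp1 (2.41 ± 0.32) and Gbp2 (1.30 ± 0.18). Oas2 lost its call in 2 of the 8 fits with an array left out (adjusted p up to 0.0671).

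Of 12 tested receptors and adaptors of nucleic acid sensing 2 rose, with a median of 0.079. Tlr3, the endosomal receptor of double-stranded RNA, rose by 2.62 ± 0.21, and the kinase gene Ikbke by 1.28 ± 0.19 (adjusted p = 0.00376). Mavs, the adaptor of Rigi and Ifih1, was at -0.16 ± 0.23, and Tbk1, a kinase beside Ikbke, at 0.0015 ± 0.078. Of 5 tested genes known mainly as targets of interferon gamma 2 rose: Cd274, the checkpoint ligand PD-L1, by 0.89 ± 0.12 (adjusted p = 0.0021), and the chemokine gene Cxcl9 by 1.51 ± 0.31 (adjusted p = 0.0222). Cxcl9 lost its call in 5 of the 8 fits with an array left out (adjusted p up to 0.0767), and Ciita was at -0.079 ± 0.086.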

How the data were processed

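Each of the 8 RNA samples was hybridised to an Affymetrix mouse array of its own. The authors deposited intensities, 1 linear value for every probe set, made with MAS5 according to the submitters' processing notes; the version, scaling target and genome build were not given in the sources used here. The table has no detection calls. In the platform annotation 34958 of 45101 probe sets carry 1 symbol, 932 carry several and 9211 none. RefSeq names (GRCm38.p6) replaced 34754 symbols by gene identifier, and Rigi is Ddx58 there.

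After 64 control probe sets were removed, values were transformed to log2(signal + 16), and the lowest 40% by mean were dropped (signal up to 42.9). The test was limma 3.58.1 under R 4.3.3 (eBayes with a trend), Benjamini-Hochberg adjusted over 27022 probe sets. Fold changes are on the log2(signal + 16) scale, which understates those of dim genes, and ± is the SE of the fit unless SD is stated. On simulated data with 200 of 27022 probe sets changed, 49.3% of 1.5-fold, 50.7% of 2-fold and 89.4% of 4-fold changes were recovered, with 4 of 130 calls false. Promoter windows and their coordinates are RefSeq's. Every gene of the 42 is named; arrays are printed for up to 5 called genes per group by adjusted p and for genes not called whose groups do not overlap, and, chosen after their values were seen, for Ifi204, Mx2 and Ifitm3. The genes, lists and alternatives were chosen with earlier results of these data known. Same-numbered arrays correlated at 0.24, 0.28, -0.03 and -0.081 after group means were removed, so the numbers were not taken as pairs. The number of arrays limits the precision. Figures were drawn with matplotlib 3.10.9.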

Additional observations from a re-analysis of the deposited data

Results flagged for a closer look

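In 6 of the 80 gene and genotype combinations 1 array stood far from the other 3 of its group (gap to the nearest array over the group's range, on the log2 scale, above Dixon's critical value for 4 samples); chance gives about 1 in 20. Rsad2 read 5149 on Irf4 null array 3, and its 2 other probe sets also read highest there, at 2460 and 1095. Cmpk2, the neighbouring gene, read 1123 on that array, within its group's range of 849 to 1190. Isg20 was also highest on Irf4 null array 3, at 2246. On wild-type array 2 Mx2 read 16.5 and Parp9 1731, each the lowest of its group. Dtx3l read 2864 on Irf4 null array 4 and Stat2 441 on wild-type array 3, each the highest of its group.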

How the results depend on the processing

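The count of genes called higher lay between 15 and 21, with none lower, under both other pseudocounts, quantile normalization, both other dim filters, scaling to a common median, a robust variance, array weights, the Xist-high term, the other-cell marker covariate and both other choices of probe set. Without the variance trend 13 genes and 555 probe sets were called, and at an adjusted p below 0.01 11 genes and 330 probe sets. Array weights called 1746 probe sets. Within the Xist-high arrays 9 genes and 255 probe sets were called, and within the Xist-low arrays 6 genes and 264 probe sets with a median of 0.52 over the genes. The Xist-high term gave a median of 0.56, and the marker covariate a median of 0.53 with 627 probe sets called. With 1 array left out, 12 to 22 genes were called higher and 0 lower, the median ran from 0.58 to 0.73, and 466 to 2172 probe sets were called. Against 950 over all 8 arrays, the probe sets called were 2172 without wild-type array 2, 525, 561 and 533 without wild-type arrays 1, 3 and 4, and 504 and 466 without Irf4 null arrays 2 and 4. With the replicate block 23 genes and 1168 probe sets were called; Trim30a was lost and Eif2ak2, Ifi27l2a, Parp9 and Rsad2 were gained. Of 999 values of single genes under an alternative none turned sign with a call, and 9 turned sign without one. The cause of these shifts was not tested. Usp18, Ifit1, Ifit3 and Ifih1 kept their call in every alternative run. With no detection calls, a dim signal such as that of Mx2 on wild-type array 2, 16.5, cannot be told from background.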

Other observations

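Some of these genes are neighbours in RefSeq with no protein-coding gene between them, and the members of each such pair shared a call. Ifit2 and Ifit3 both rose, Rsad2 (0.97) and Cmpk2 (0.30) both missed the threshold, and so did Parp14, Dtx3l and Parp9 (0.27, 0.29 and 0.36). Farther apart, with 2 genes between them, Slfn5 rose and Slfn2 was at 0.026.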
